A study of Mus musculus with 12 samples.

Results

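Aminoacyl-tRNA synthetase genes were taken as the features whose symbol is 1 capital letter followed by "ars", with or without a final 1 or 2, together with Eprs, Farsa, Farsb and Tarsl2. The rule found 38 of the 47730 features: 21 genes of the cytosolic enzymes and 17 whose symbol ends in 2 and whose enzymes work in mitochondria. Each synthetase joins 1 amino acid to its tRNAs, and the charged tRNAs are what ribosomes read. Mitochondria translate their own mRNAs with a separate set of enzymes that nuclear genes encode and that are imported. Gars and Kars supply both compartments from 1 gene each, Eprs charges both glutamate and proline, Farsa and Farsb encode the subunits of 1 enzyme, and Tarsl2 is a second cytosolic threonyl-tRNA synthetase. Leucine, isoleucine and valine are the branched-chain amino acids, whose breakdown is restrained by the kinase Bckdk, and a shortage of an amino acid leaves its tRNAs uncharged, which the kinase Eif2ak4 (GCN2) senses.

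Males of the C57BL/6J strain (at least 10 generations of backcrossing) were used at 5 to 6 months of age, with free access to food. They were wild type (Bckdk+/+) or homozygous for a mutant Bckdk allele (BckdkM/M), and tissue was taken between ZT6 and ZT7. Polyadenylated RNA was sequenced from combined gastrocnemius and plantaris muscle and from testis, in 4 groups of 3 libraries, with no treatment. The allele is present in every cell of a mutant mouse, the tissues are mixtures of cell types, and in such bulk samples fewer cells of a type and less RNA per cell cannot be told apart. Letters A to G stand for the mice, and A, B, C, D and F gave both tissues.

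The mutated gene was read first. Wild-type muscle held 2214, 2421 and 2627 normalised counts of Bckdk, and mutant muscle held 14.8, 14.3 and 12.4 (log2 difference -7.35, limma adjusted p = 1.66e-09). In testis it was 68.0, 73.3 and 71.0 in wild type and 138, 119 and 114 in the libraries labelled mutant, so it was not lower there (log2 difference 0.79, limma adjusted p = 0.349). The testis groups are therefore called by their label. Skeletal muscle markers (Acta1, Ckm, Myh4, Tnnt3 and Mylpf) summed to 1.12e+06 to 2.17e+06 in muscle and to 105 to 11690 in testis, and germ cell markers (Prm1, Prm2, Tnp1, Tnp2, Sycp3 and Ddx4) to 115970 to 143708 in testis and 817 to 2151 in muscle. Pancreatic islet genes (Ins1, Ins2, Gcg, Iapp, Ppy and Sst) were present in all 12 libraries. Their sum was 12235 to 14276 in wild-type muscle and in mutant muscle 12380 for mouse D, 29333 for F and 27671 for G. Among testis libraries, mice A and B had 17248 and 17001, and the remaining 4 had 9374 to 12128. Recovered reads were 12852427 to 15795722 per library, and the least covered synthetase gene had 15 to 58 of them, depending on the library.

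Promoters are shown first, for the synthetase genes that carry the core of the amino acid response element, the sequence through which ATF4 is known to raise genes of amino acid supply. RefSeq promoter windows (GRCm38.p6, 250 bases before to 50 after the start) were matched for 28 of the 38 genes, 14 of each class, and not for Hars, Hars2, Lars, Nars, Vars, Cars, Rars, Wars and Pars2, among others. The core was searched on both strands as TGATGNAA, which lay in 5 of the 14 cytosolic and 0 of the 14 mitochondrial windows, against 4.06% of all 27025 windows. Capitals mark the match, which reads TGATGNAA or its reverse complement. Of 6 matches, those of Tars and Yars share bases with a CANNTG match, and a further match of Aars lies after the start and is not shown.
Aars: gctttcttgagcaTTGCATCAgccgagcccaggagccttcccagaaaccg
Gars: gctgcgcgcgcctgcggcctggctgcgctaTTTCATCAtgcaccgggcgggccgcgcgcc
Tars: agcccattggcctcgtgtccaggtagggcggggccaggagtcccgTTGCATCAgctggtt
Iars: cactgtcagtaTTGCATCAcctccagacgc
Yars: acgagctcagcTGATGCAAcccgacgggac

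These stretches lie at chr8:111033717-111033766 on the plus strand (Aars), chr6:55037941-55038000 on the plus strand (Gars), chr15:11399659-11399718 on the minus strand (Tars), chr13:49682126-49682155 on the plus strand (Iars) and chr4:129189895-129189924 on the plus strand (Yars). The match began 112 bases before the start for Aars, 30 before for Gars and 15 before for Tars, and at transcribed base 4 for Yars and 8 for Iars. Among the other motifs searched on both strands, CCGGAAG (the core bound by ETS factors) was in 9 of 28 windows (32.1%), 5 cytosolic and 4 mitochondrial, against 9.12% of all windows. TGACGTCA and the NRF1 element were in 0 of 28 against 1.88% and 0.977% of all windows, and CANNTG was in 22 of 28 against 72.1%. Tissue differences of the genes with the core ran from -0.12 (Aars) to 2.11 (Tars) on the log2 scale, and those of the other 9 cytosolic genes with a window from -0.21 (Qars) to 2.56 (Tarsl2), so these ranges overlap.

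Levels were compared between genes as normalised count per kb of exon. The length was the union of all annotated exons of a gene (18102 bases for Eprs), not that of the transcripts present. The order of genes and the sign of a pair ratio depend on this length, and differences of a gene between groups do not. In wild-type muscle Nars, the asparaginyl enzyme, was highest at 569 ± 64.9 per kb (SD, n = 3), and its libraries did not overlap those of the next gene, Kars, at 438 ± 24.1. Gars (406 ± 32.7), Mars (386 ± 28.7) and Sars (375 ± 40.4) followed, each overlapping its neighbour. The lowest was Wars2 at 15.6 ± 2.30 per kb, next to Nars2 at 19.3 ± 3.31. Of the 37 neighbouring pairs in this order, 31 overlapped. In wild-type testis the order was led by Vars, the valyl enzyme, at 1146 ± 37.7 per kb, apart from Dars at 318 ± 20.8 and Kars at 270 ± 4.28, and 27 of 37 neighbours overlapped. Pars2 was lowest there, at 6.35 ± 2.06 per kb. The median cytosolic gene stood at 222 per kb in wild-type muscle and 109 in wild-type testis, and the median mitochondrial gene at 64.4 and 30.4. In mutant muscle these medians were 190 and 61.0 per kb, and in testis labelled mutant 109 and 30.7. As a share of all recovered reads, the cytosolic genes together took 0.161% to 0.165% in wild-type muscle and 0.163% to 0.166% in wild-type testis. The mitochondrial genes other than Lars2 took 0.0270% to 0.0289% in muscle and 0.0389% to 0.0397% in testis.

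**Figure D1:**
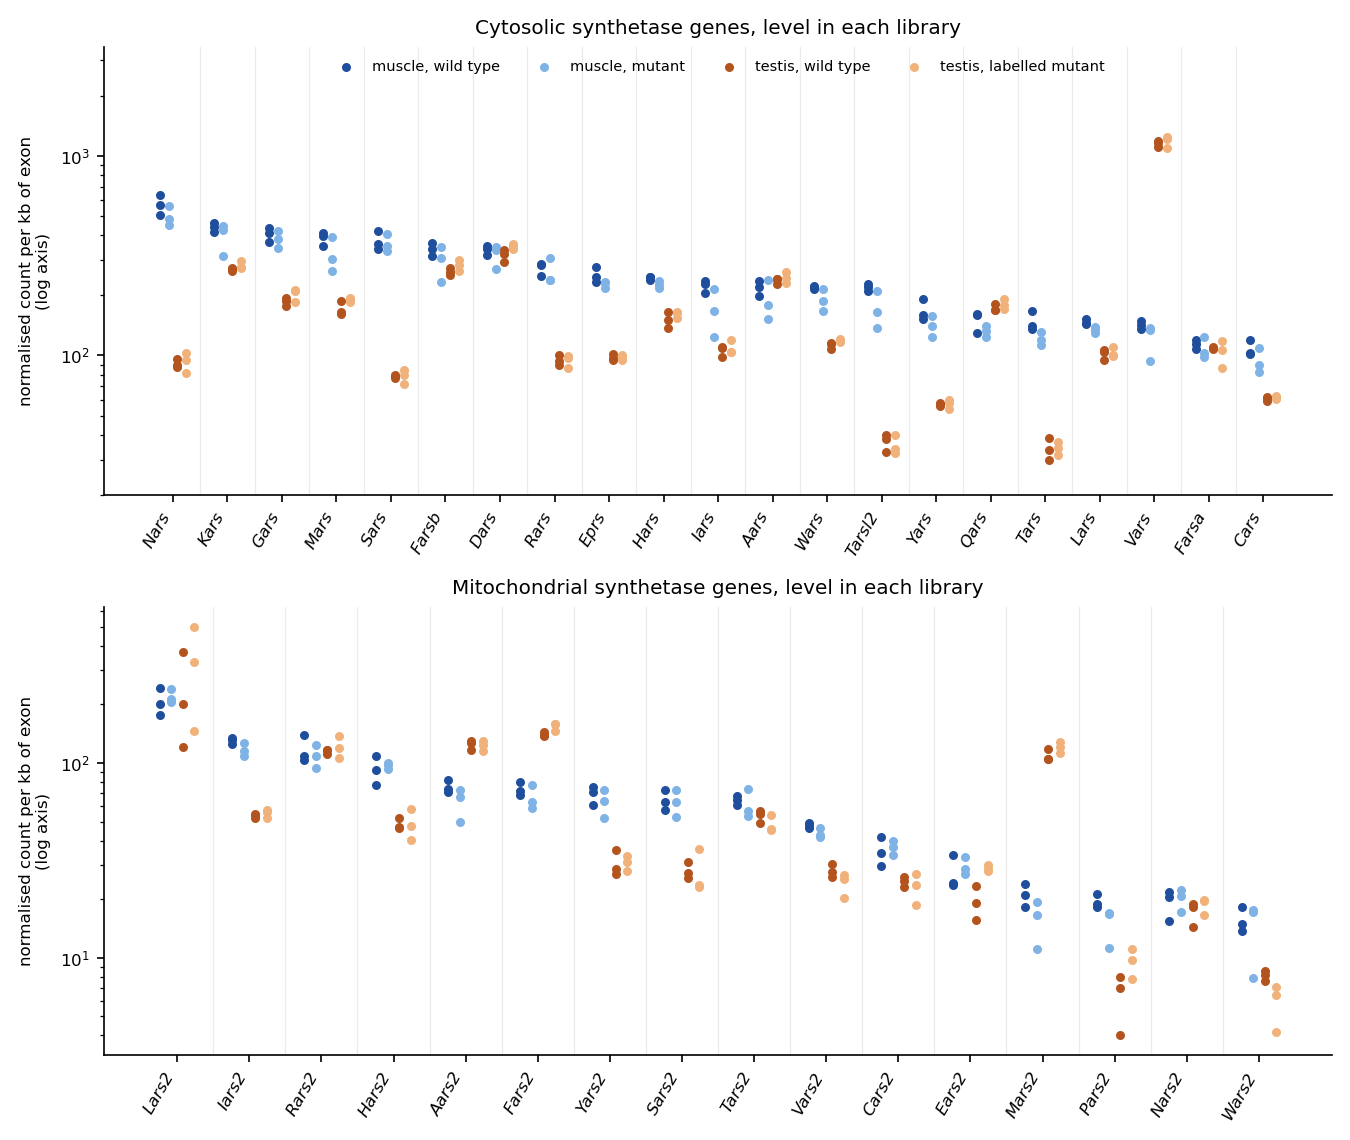
Level of 37 synthetase genes in each of the 12 libraries, as normalised count per kb of exon on a log axis, with cytosolic genes above and mitochondrial genes below, ordered by wild-type muscle. Each point is 1 library; Vars and Mars2 are the genes whose testis points stand farthest above muscle, and Nars, Tarsl2, Sars and Tars those farthest below.

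Between the tissues of wild-type mice, 26 of the 38 synthetase genes were higher in muscle and 4 were higher in testis (limma, adjusted p below 0.05; 87.9% of the 19994 genes tested were called, 37.3% higher and 50.6% lower in muscle). Of the 21 cytosolic genes 16 were higher in muscle and Vars was lower, with a median log2 difference of 0.96. Of the 17 mitochondrial genes 10 were higher and 3 lower, with a median of 0.51, or 0.64 without Lars2, while the median of all genes tested was -0.48. These values depend on how the libraries are scaled. Scaled by total reads, the all-gene median moved to -0.95, and 19 synthetase genes were higher in muscle and 9 lower, with medians of 0.48 for the cytosolic and 0.03 for the mitochondrial genes. With TMM scaling the all-gene median was -0.28 and the split was 29 to 4. With total-read scaling genes such as Hars, Lars, Cars2, Wars2, Farsb and Tars2 lost their call toward muscle, and Aars, Dars, Farsa, Qars and Rars2 were called toward testis.

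Nars, which charges asparagine, had the largest difference toward muscle, with 2204, 2457 and 2768 in muscle against 416, 390 and 382 in testis (log2 difference 2.64 ± 0.10 SE, adjusted p = 4.66e-08). Tarsl2 had 1413, 1475 and 1529 in muscle and 221, 269 and 258 in testis (2.56 ± 0.10, adjusted p = 5.15e-08). Tars, the other threonyl enzyme, had 832, 796 and 983 against 176, 197 and 228 (2.11 ± 0.13, adjusted p = 7.57e-07). Both threonyl genes were thus over 4-fold higher in muscle, with no overlap between tissues. Sars, the seryl enzyme, had 1760, 1865 and 2161 in muscle and 406, 410 and 397 in testis (2.25 ± 0.09, adjusted p = 7.95e-08). Yars, the tyrosyl enzyme, had 904, 952 and 1135 against 342, 332 and 337 (1.55 ± 0.10). Pars2, the mitochondrial prolyl enzyme and the lowest gene per kb in testis, had 66.0, 58.4 and 56.5 against 24.7, 12.5 and 21.7 (1.62 ± 0.31, adjusted p = 0.00119). Its standard error was about 3 times that of Yars, and its testis counts the lowest of any synthetase gene named here.

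A group of 8 cytosolic enzymes is known to be bound in 1 multi-synthetase complex (Dars, Eprs, Iars, Kars, Lars, Mars, Qars and Rars). Of these 8 genes, 6 were higher in muscle and 0 lower, with a median log2 difference of 0.89, and of the other 13 cytosolic genes 10 were higher and 1 lower, with a median of 0.96. Rars, the arginyl enzyme, had 808, 922 and 918 in muscle against 323, 290 and 302 in testis (1.53 ± 0.09). Eprs had 4491, 4211 and 5033 against 1844, 1711 and 1754 (1.37 ± 0.09). The scaffold genes of the complex were higher in muscle in 3 of 3 cases. Aimp2 had 2387, 2428 and 2771 in muscle and 219, 220 and 227 in testis, an 11.3-fold difference (3.50 ± 0.08, adjusted p = 5.14e-09), larger than that of any synthetase gene in that direction. Aimp1 differed by 0.85 and Eef1e1 by 1.45 on the log2 scale. Within the complex, Dars and Qars did not pass the test. Dars had 1386, 1484 and 1543 in muscle and 1286, 1464 and 1404 in testis (0.09, 95% interval -0.10 to 0.27). Its direction turned with the scaling: Dars was lower in muscle with total-read scaling (-0.39) and higher with TMM (0.29).

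Genes without a separate mitochondrial partner differed among themselves. Gars, the glycyl enzyme of both compartments, had 1285, 1158 and 1360 in muscle against 587, 551 and 605 in testis (2.18-fold, adjusted p = 3.44e-06). Kars, the lysyl enzyme of both compartments, had 1968, 1843 and 2057 against 1204, 1185 and 1223 (0.70 ± 0.07, adjusted p = 2.15e-05). Qars, the glutaminyl enzyme, had 1050, 853 and 1058 in muscle and 1105, 1110 and 1192 in testis (-0.21, 95% interval -0.44 to 0.02, adjusted p = 0.0785). Its libraries did not overlap, and it was called lower in muscle with total-read scaling (-0.69) and without muscle library C (-0.26, adjusted p = 0.039). Mitochondria have no glutaminyl synthetase of their own and convert glutamate already on the tRNA with the Gatb, Gatc and Qrsl1 proteins. All 3 of those genes were higher in muscle: Gatc by 1.58, Qrsl1 by 0.74 and Gatb by 0.64 on the log2 scale, of which Gatc alone was called with total-read scaling (1.10).

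The 4 genes higher in testis were Vars, Mars2, Fars2 and Aars2, also with total-read and TMM scaling. Vars, the valyl enzyme, had 831, 794 and 764 in muscle and 6616, 6465 and 6198 in testis, an 8.06-fold difference (-3.01 ± 0.07, adjusted p = 4.95e-09). It was the only cytosolic gene called in that direction with the deposited scaling, and total-read scaling added Aars, Dars, Farsa and Qars. Mars2, the mitochondrial methionyl enzyme, had 238, 269 and 205 against 1188, 1179 and 1330 (-2.38 ± 0.11, adjusted p = 2.15e-07). Fars2, the mitochondrial phenylalanyl enzyme, had 392, 412 and 457 against 829, 803 and 790 (-0.94 ± 0.08, adjusted p = 9.89e-06). Aars2, the mitochondrial alanyl enzyme, had 351, 390 and 338 against 603, 617 and 555 (-0.72 ± 0.09, adjusted p = 9.64e-05). In all 4 the tissues did not overlap, as in 89.4% of genes tested. Valyl-tRNA synthetase is known to be bound to the elongation factor complex of Eef1b2, Eef1d and Eef1g. Of these, Eef1d was higher in testis as Vars was, with 1894, 1989 and 2536 in muscle and 8406, 8056 and 7760 in testis (-1.93 ± 0.12), while Eef1b2 (1.88) and Eef1g (0.54) were higher in muscle, Eef1g not with total-read scaling (0.05).

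The enzymes of the branched-chain amino acids were found on both sides. Iars, the isoleucyl enzyme, had 1077, 1195 and 1244 in muscle against 572, 519 and 578 in testis (1.07 ± 0.09), and mitochondrial Iars2 had 1187, 1165 and 1116 against 484, 481 and 462 (1.28 ± 0.07). Exons of Iars2 share 2034 of its 8885 bases with Rab3gap2 on the other strand, so without strand part of its count is uncertain. Lars, the leucyl enzyme, had 818, 779 and 772 against 570, 511 and 557 (0.53 ± 0.08), but with total-read scaling its difference was 0.05 and not called. Vars2, the mitochondrial partner of Vars, was higher in muscle, with 254, 268 and 262 against 166, 150 and 141 (0.78 ± 0.12, adjusted p = 0.000245). Lars2 was not called (-0.02, 95% interval -0.84 to 0.80), and its testis libraries spread over 3-fold. Its estimate was -0.86 without the libraries of high islet sum, where C is the only wild-type testis library.

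Calls near the threshold changed with single libraries or with the method. Tars2 (0.27, adjusted p = 0.0264) was not called without muscle A (adjusted p = 0.0748), testis B (0.13) or testis C (0.052). Farsb (0.37) kept its call without any single library. Its estimate was 0.31 without the libraries of high islet sum, a fit in which C is the only wild-type testis library. Ears2 (0.49, adjusted p = 0.0651) was called without testis C (0.63) and with the mouse as a replicate block (adjusted p = 0.040). With all 6 libraries it was also called by edgeR (0.68, adjusted p = 0.00805), DESeq2 (0.58, adjusted p = 0.0179), TMM scaling (0.68, adjusted p = 0.0149), median-of-ratios scaling (0.58, adjusted p = 0.0352) and the model of all 12 libraries (adjusted p = 0.0292). Cars, Cars2, Hars, Hars2, Mars, Sars2, Wars, Wars2 and Yars2 were higher in muscle by 0.51 (Cars2) to 1.19 (Sars2), all called, and Aars, Farsa, Nars2 and Rars2 were not called, at -0.12 to 0.16. Without muscle library C, Aars was called lower in muscle (-0.18, adjusted p = 0.0396). Some exons overlap those of other genes, and these counts are uncertain to that extent. Exons of Aars share 1326 of 9282 bases with Exosc6 on the same strand. Exons of Farsb share 248 of 2620 bases on opposite strands with Sgpp2, which had a mean of 13.7 in muscle and 192 in testis. Also on opposite strands, Hars and Hars2 share 195 bases, Fars2 shares 501 with Nrn1, Cars2 422 with Naxd and Mars 68 with Ddit3. On opposite strands too, Vars2 shares 465 of 5460 bases with Gm20483. Nars2 likewise shares 284 of 6967 with C230038L03Rik, which had a mean of 57.3 in muscle and 322 in testis. Tarsl2 shares 120 of 6741 bases with Tm2d3 on the same strand.

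**Figure D2:**
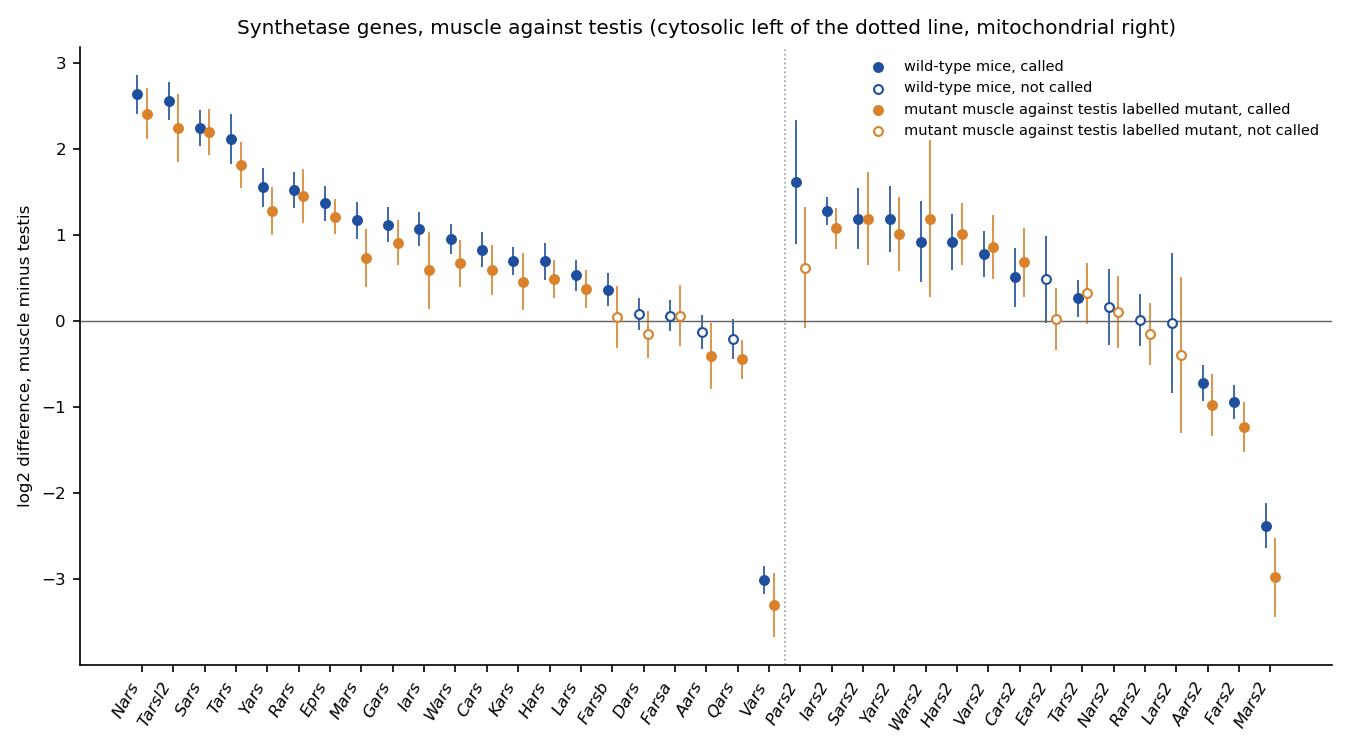
Log2 difference between muscle and testis for 37 synthetase genes, in wild-type mice and in mutant muscle against testis labelled mutant, with 95% intervals from limma; filled points passed an adjusted p below 0.05. Most points lie above 0, and Vars, Mars2, Fars2 and Aars2 lie below it as filled points in both comparisons.

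In mutant muscle against testis labelled mutant, which share no library with the wild-type comparison, 23 synthetase genes were higher in muscle and 6 lower (85.9% of 20021 genes were called, 36.3% higher and 49.7% lower). The cytosolic split was 15 to 3 with a median log2 difference of 0.60, and the mitochondrial split 8 to 3 with a median of 0.62. All-gene medians were -0.48, and -0.80 with total-read scaling, which gave 16 higher and 8 lower. With that scaling genes such as Iars (0.27), Kars (0.14), Hars, Lars, Cars2 and Wars2 lost their call toward muscle. Dars (-0.47) and Rars2 (-0.47) gained one toward testis. In both comparisons 23 genes were called higher in muscle, 4 were called lower, and 0 were called in opposite directions.

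Nars had 2451, 1953 and 2089 in mutant muscle and 357, 447 and 413 in testis labelled mutant (2.41 ± 0.13). Tarsl2 had 1415, 1108 and 922 against 230, 220 and 268 (2.24 ± 0.17). Sars had 2088, 1817 and 1703 against 434, 412 and 371 (2.20 ± 0.11), and Tars 775, 703 and 667 against 204, 188 and 217 (1.81 ± 0.12). These were again the genes with the widest gap toward muscle. Rars (2.74-fold), Yars (1.28 on the log2 scale), Eprs (1.22) and Sars2 (1.19) came next. Vars had 754, 773 and 524 in muscle against 6130, 6977 and 6783 in testis (-3.30 ± 0.16), and Mars2 218, 125 and 186 against 1455, 1275 and 1362 (-2.98 ± 0.20). Fars2 (-1.23), Aars2 (-0.98), Qars (-0.45, adjusted p = 0.00263) and Aars (-0.40, adjusted p = 0.049) were also lower in muscle. Aars lost its call without any 1 of muscle F, muscle G and testis D, E and F (adjusted p 0.065 to 0.128). With all 6 libraries kept, Aars was not called by edgeR (-0.21, adjusted p = 0.223), DESeq2 (-0.33, adjusted p = 0.117), TMM scaling (-0.23, adjusted p = 0.184) or median-of-ratios scaling (-0.35, adjusted p = 0.0743), nor with a pseudocount of 0.5 (adjusted p = 0.0529) or without the filter (adjusted p = 0.0592). Calls were also lost by Iars without muscle F, testis E or testis F, by Wars2 without muscle D, muscle F or testis F and by Kars without muscle F. Pars2 (0.62) and Tars2 (0.32) were not called, and they were without muscle F and without muscle G, respectively. Both were called by edgeR (0.82 and 0.51, adjusted p = 0.0203 and 0.0123) and with TMM scaling (0.79 and 0.50, adjusted p = 0.0363 and 0.018). DESeq2 called Pars2 (0.70, adjusted p = 0.0429). Lars2 was lower in muscle without testis E (-0.89, adjusted p = 0.0036). With the mouse as a replicate block, which rests on mice D and F, Aars lost its call (-0.21, adjusted p = 0.272) and Tars2 (0.50, adjusted p = 0.039) and Lars2 (-0.95, adjusted p = 0.0036) gained one. Without the high-islet muscle libraries F and G, the cytosolic median was 0.86.

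Cytosolic and mitochondrial enzymes for the same amino acid were set against each other within each library, which removes the scaling between libraries. There are 17 such pairs, with Eprs in 2 of them. Farsa stands for the cytosolic phenylalanyl enzyme and Tars for the threonyl one. Farsb and Tarsl2 are in no pair, and the counts depend on that choice. Per kb, the cytosolic gene stood above the mitochondrial one in 16 of 17 pairs in wild-type muscle and in 13 of 17 in wild-type testis. The ratio was higher in muscle for 12 pairs and lower for 5, with a median change of 0.55 on the log2 scale, and the tissues did not overlap for 10 and 2 of these (for single genes, 89.4% did not overlap).

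For methionine the log2 ratio of Mars to Mars2 was 0.65 ± 0.03 (SD, n = 3) in testis and higher by 3.55 in muscle, where Mars stood 18.3-fold above Mars2. For asparagine the ratio of Nars to Nars2 was 4.88 ± 0.32 in muscle against 2.404 ± 0.27 in testis. For threonine the ratio of Tars to Tars2 was 1.19 ± 0.16 in muscle and -0.66 ± 0.22 in testis, so the mitochondrial gene was the higher one in testis. Arginine (1.23 and -0.28) and phenylalanine, by Farsa and Fars2 (0.64 and -0.37), crossed in the same way. Farsb, which encodes the other subunit, stood above Fars2 in wild-type testis (263 and 140 per kb), so the phenylalanine crossing holds for Farsa only. Tars (34.0 per kb) and Tarsl2 (37.0) were each below Tars2 (53.6) in wild-type testis. Added together they stood above it, so the threonine crossing holds for each gene alone. For valine the ratio of Vars to Vars2 moved the other way, from 1.56 ± 0.09 in muscle to 5.35 ± 0.07 in testis. Leucine was the pair in which the mitochondrial gene stood higher in both tissues (-0.47 ± 0.26 and -1.03 ± 0.75), with the limit on Lars2 given below. In mutant muscle and testis labelled mutant the change was 3.71 for methionine, 2.31 for asparagine and -4.15 for valine. The sign differed from wild type for proline (0.59, and -0.25 in wild type), cysteine (-0.09 and 0.32) and tryptophan (-0.52 and 0.04). The tissues overlapped for proline and tryptophan in wild type, and for cysteine and tryptophan in the mutant comparison.

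**Figure D3:**
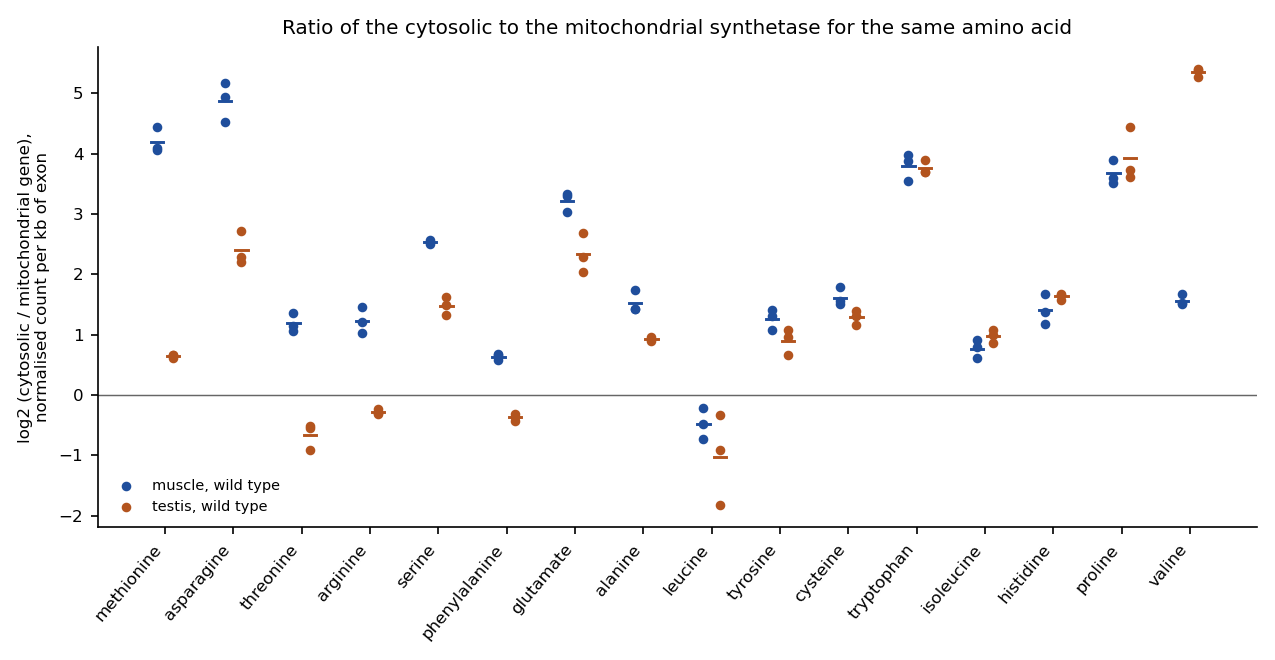
Log2 ratio of the cytosolic to the mitochondrial synthetase gene for 16 amino acids in wild-type libraries, as normalised count per kb of exon, with 1 point per library and a bar at the mean. Amino acids are ordered by the difference between muscle and testis, from methionine (higher in muscle) to valine (higher in testis).

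Lars2, the mitochondrial leucyl enzyme, could not be read like the others. It had 1952, 2680 and 2215 in wild-type muscle, 2375, 2279 and 2662 in mutant muscle, 2221, 1334 and 4097 in wild-type testis and 5513, 1625 and 3668 in testis labelled mutant. Within each testis group it spread over 3-fold, with mouse B and mouse E lowest. Gm42418, an annotated long noncoding RNA known to hold ribosomal RNA sequence, followed the same libraries, with 20888, 10705 and 34471 in wild-type testis and 48198, 14894 and 31273 in testis labelled mutant. Gm42418 was chosen after the values were seen, so the correlations are a description with no test. Over the 6 testis libraries Pearson's r of the log2 values was 0.995 and Spearman's rho was 1. Without the 2 libraries farthest from the median r was 0.998 (n = 4). In muscle r was 0.797 and rho 0.771, and r was 0.838 without 2 libraries (n = 4). Ranked by r with Gm42418, Lars2 stood at place 4 of 19543 genes in testis and 163 of 16246 in muscle, and the other synthetase genes had r of -0.91 to 0.89 in testis and -0.68 to 0.69 in muscle. Lars2 stood at 10.6% to 12.5% of Gm42418 in testis and 6.05% to 7.80% in muscle. Groups of 3 are too small for the relation within a genotype, and the part of such reads in the Lars2 count was not tested.

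**Figure D4:**
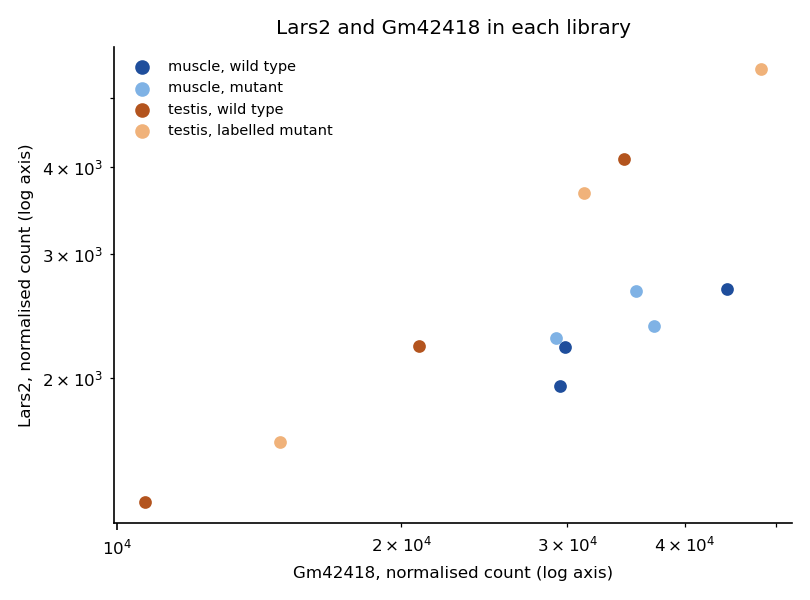
Normalised counts of Lars2 and Gm42418 in each of the 12 libraries, on log axes, by tissue and genotype label. The 6 testis points rise together from 1334 to 5513 for Lars2, and at equal Lars2 the muscle points lie to the right of them, at higher Gm42418.

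Genes that act next to the synthetases were read from lists, against the 37.3% of all genes called higher and 50.6% called lower in wild-type muscle. Of the 5 mitochondrial translation factors listed, 5 were higher in wild-type muscle than testis (4 with total-read scaling, without Guf1). They were led by Gfm1 (2.18), Tsfm (2.11), Gfm2 (1.98) and Tufm (1.72), with a list median of 1.98. Of the 5 partners of mitochondrial charging 3 were higher (1 with total-read scaling), and Trnt1, which adds the CCA end to tRNAs, was lower in muscle (-0.72). Of the 6 cytosolic elongation factors 3 were higher and 2 lower. Eef1a2, the form of the tRNA-carrying factor known in muscle, had 28802, 31453 and 35006 in muscle and 110, 44.2 and 195 in testis (8.31), and Eef1a1, the general form, was lower in muscle (-1.19). Testis library B was lowest for Eef1a2 and also for the skeletal muscle markers (105), and the part of muscle RNA in the testis values was not tested. Of the 4 editing factors, Prorsd1 (2.96) and Dtd1 (0.34) were higher in muscle, Dtd1 not with total-read scaling.

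Of 18 genes of the amino acid response, 8 were higher and 8 lower in wild-type muscle (6 and 8 with total-read scaling), so the share called was near the 87.9% of all genes. Vldlr (6.58), Atf4 (2.84) and Cebpb (4.56) were higher, and Slc7a5, a leucine transporter, was lower (-4.58). Asns, which makes asparagine, was also lower in muscle, with 160.5, 97.4 and 64.2 against 1882, 1726 and 1859 in testis (-4.17 ± 0.28, adjusted p = 1.60e-06), while Nars, which charges it, was higher. Between genotypes, 0 of the 40 listed genes tested passed with limma in either tissue, with 5 in muscle and 6 in testis at an unadjusted p below 0.05 (9.52% and 7.09% of all genes reached it), and edgeR called 0. DESeq2 called 1, Atf5 in muscle (log2 difference 0.61, adjusted p = 0.024), and 0 in testis. Over all genes DESeq2 called 36 of 16246 in muscle and 10 of 19543 in testis.

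Between mutant and wild-type muscle, 0 of the 38 synthetase genes passed the test with limma, edgeR or DESeq2. Of the 16246 genes tested limma called 6 (0.0369%), edgeR 6 and DESeq2 36. At an unadjusted limma p below 0.05 there were 2 synthetase genes, Tarsl2 and Iars, where 9.52% of all genes reached it. Point estimates were below 0 for 21 of 21 cytosolic genes (median log2 difference -0.19) and for 12 of 17 mitochondrial genes (-0.13), against 55.5% of all genes (-0.04). With total-read scaling 16 cytosolic estimates were below 0 and 5 above (median -0.09), 9 mitochondrial ones were below and 8 above (-0.03), and the all-gene median was 0.07. The mutant libraries of mice F and G, which had the highest islet sums in muscle, were the lowest: relative to the wild-type mean the cytosolic median was -0.05 in D, -0.21 in F and -0.27 in G, and -0.06, -0.03 and 0.09 in the wild-type libraries A, B and C. With D as the only mutant library the median was -0.05, with 13 genes below 0 and 8 above, and the mitochondrial median was 0.02. Other marker lists moved between the same muscle groups, with 0 genes called. The 3 erythroid genes (Alas2, Hbb-bs and Hba-a1) were above 0 without overlap (median log2 difference 0.68; summed level 2447 to 2550 in wild type and 3272 to 5407 in mutant muscle). Estimates were above 0 for 4 of 4 adipocyte genes (0.80; sums 3400 to 17374 and 13941 to 46825), 6 of 6 pancreatic acinar genes (0.76; 116 to 241 and 242 to 364) and 3 of 3 tendon genes (0.63; 734 to 1098 and 908 to 1536). They were below 0 for 4 of 5 skeletal muscle genes (-0.20; 1.73e+06 to 2.17e+06 and 1.12e+06 to 1.90e+06) and 5 of 6 germ cell genes (-0.82; 1577 to 1915 and 817 to 2151). The part of RNA of these cell types in the synthetase values was not tested.

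Iars had 1077, 1195 and 1244 in wild-type and 1131, 875 and 650 in mutant muscle (-0.44, 95% interval -0.85 to -0.03, adjusted p = 0.519). Tarsl2 had 1413, 1475 and 1529 against 1415, 1108 and 922 (-0.38, -0.73 to -0.02, adjusted p = 0.519). In both, the lowest value was mouse G and the D library lay within or next to the wild-type range. Mars2 had 238, 269 and 205 against 218, 125 and 186 (-0.45, adjusted p = 0.528), and Tars 832, 796 and 983 against 775, 703 and 667 (-0.28, adjusted p = 0.535). Tars was 1 of 5 genes whose groups did not overlap, with Hars, Lars, Vars2 and Pars2, all lower in mutant muscle (8.85% of all genes did so). The branched-chain enzymes Lars (818, 779 and 772 against 745, 716 and 693), Vars (831, 794 and 764 against 754, 773 and 524), Vars2 (254, 268 and 262 against 253, 228 and 234) and Iars2 (1187, 1165 and 1116 against 1129, 969 and 1018) had log2 differences of -0.14, -0.24, -0.13 and -0.16, none called. Gars (1285, 1158 and 1360 against 1302, 1200 and 1070), Kars (1968, 1843 and 2057 against 1885, 1978 and 1408) and Qars (1050, 853 and 1058 against 923, 871 and 812) differed by -0.09, -0.17 and -0.18. The widest 95% interval among the cytosolic genes, that of Iars, reached -0.85, and the narrowest, that of Lars, ran from -0.41 to 0.13. Genes of the amino acid response did not pass with limma: 9 estimates were above 0 and 8 below, with a median of 0.03, and 4 had an unadjusted p below 0.05 (Chac1 -1.82, Atf5 0.56, Trib3 1.48 and Vldlr -0.48, adjusted p = 0.519 for each).

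**Figure D5:**
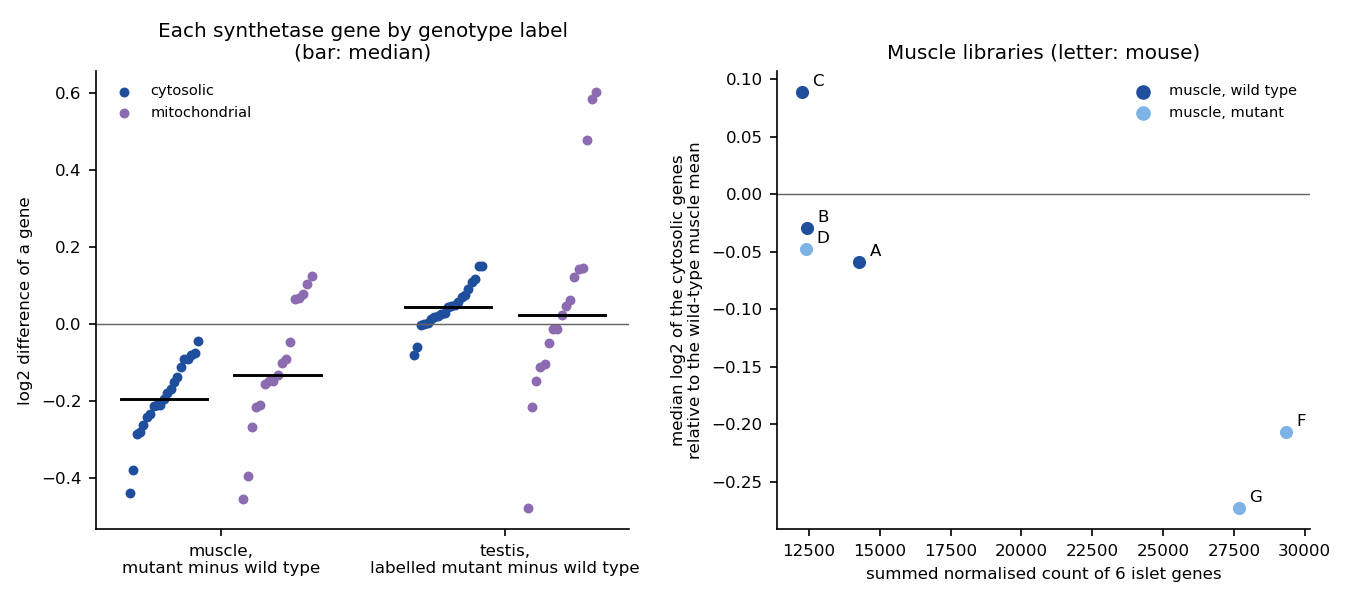
Left, log2 difference between the genotype labels for each synthetase gene in muscle and in testis, with a bar at the median of each class. Right, the median log2 value of the cytosolic genes in each muscle library relative to the wild-type mean, against the summed normalised count of 6 islet genes; mutant libraries F and G stand apart on both axes, and D lies among the wild-type libraries.

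Between testis labelled mutant and wild-type testis, 0 of 38 genes passed with limma, edgeR or DESeq2. Of the 19543 genes tested limma called 4 (0.0205%), edgeR 3 and DESeq2 10. At an unadjusted limma p below 0.05 there were 2 synthetase genes, where 7.09% of all genes reached it. Cytosolic estimates were above 0 for 17 of 21 genes (median 0.04) and mitochondrial ones for 9 of 17 (0.02), against 59.6% of all genes (0.03). The cytosolic direction turned with the scaling, with 11 above and 10 below 0 with TMM and 8 above and 13 below with total-read scaling. Some marker lists also moved between these groups, with 0 genes called. Estimates were above 0 for 5 of 5 skeletal muscle genes (median 3.20). Their sums were 105 to 11690 in wild type and 10370 to 11635 in testis labelled mutant. Germ cell genes (0.14) were above 0 in 6 of 6 cases and erythroid genes (0.27) in 3 of 3. Below 0 were 5 of 6 islet (-0.29) and 4 of 6 acinar genes (-0.07). The part of these cell types in the synthetase values was not tested. Ears2, the mitochondrial glutamyl enzyme, had 80.3, 98.3 and 121 in wild type and 143, 154 and 147 in the libraries labelled mutant (0.58, 95% interval 0.24 to 0.93, adjusted p = 0.696). Its groups did not overlap, as for Wars, Dars, Kars and Fars2, all higher (9.72% of all genes), and for Wars2, lower (3.67%). Dars, the aspartyl enzyme, had 1286, 1464 and 1404 against 1540, 1489 and 1580 (0.15, adjusted p = 0.696). Fars2 had 829, 803 and 790 against 916, 916 and 842 (0.14, adjusted p = 0.705), and Mars2 1188, 1179 and 1330 against 1455, 1275 and 1362 (0.15, adjusted p = 0.715). Intervals in testis were narrow for the main cytosolic genes: that of Vars (6616, 6465 and 6198 against 6130, 6977 and 6783) ran from -0.08 to 0.17, of Iars (572, 519 and 578 against 627, 547 and 550) from -0.14 to 0.23 and of Lars (570, 511 and 557 against 533, 590 and 537) from -0.16 to 0.19.

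The difference between the tissues in the genotype effect was called for 0 of 38 genes by the interaction term in limma, edgeR or DESeq2. Of the 14677 genes tested limma called 2 (0.0136%), edgeR 1 and DESeq2 50. Estimates were below 0 for 20 of 21 cytosolic (median -0.24) and 11 of 17 mitochondrial genes (-0.16), against 60.8% of all genes (-0.08), a difference that is lower in muscle than in testis. At an unadjusted p below 0.05 there were 3, Pars2 (-0.997), Mars2 (-0.60) and Mars (-0.44), each with an adjusted p of 0.574, where 8.69% of all genes reached it. Iars was next (-0.48, adjusted p = 0.574). Without muscle library D, Iars (-0.68, adjusted p = 0.037) and Mars (-0.59, adjusted p = 0.026) were called. The high-islet libraries F and G are then the only mutant muscle samples, and 951 of the 14482 genes tested were called, 865 of them lower. In the muscle comparison without D, 497 of the 15964 genes tested were called, 408 of them lower, and 0 synthetase genes.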

How the data were processed

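Per the submitters' processing notes, fastp 0.23.4, HISAT2 2.1.0, Picard 1.119, HTSeq 0.11.2 and DESeq2 1.46.0 were used with the build GRCm38.p4. The strand setting is not given in the sources used here. The authors deposited a table of signal values, in which each library's read counts share 1 divisor, its size factor (normalised counts), and a table of regularised log2 values (rlog). Dividing by a step per library gave whole numbers for 100% of values within 0.001, and these recovered reads give the depth. In testis library D, 26 values had become dates and were left out, none of them of a synthetase gene.

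Groups are those of the labels, and letters stand for mouse numbers in the column headers; the replicate numbers of the titles could not be tied to them. Separate animals are replicates. Mice A, B and C (wild type) and D and F (mutant) gave both tissues, which pairs the tissue comparisons by animal, although over 14677 genes the deviations of the same mouse from the group means correlated at only -0.04 to 0.01.

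log2(normalised count + 1) was tested with limma 3.58.1 (trend, two-sided, R 4.3.3) on genes with at least 10 in at least 3 libraries fitted, adjusted by Benjamini-Hochberg over all genes, called below 0.05. All 38 synthetase genes passed this filter in every comparison. A permutation test of 3 against 3 cannot go below 0.1. Fold changes are on the log2(value + 1) scale. edgeR 4.0.16 and DESeq2 1.42.0 on recovered reads, other scalings, filters, pseudocounts, left-out libraries and the mouse as a block were alternatives. The fit was tested on simulated data.

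Genes given in full were the called ones, up to 8 per direction, or the 4 of smallest p where fewer than 3 were called, plus Gars, Kars, Qars and the leucine, isoleucine and valine enzymes. The genes, lists and motifs were chosen with earlier results of these data known. Exon lengths and overlaps are from GENCODE M21 on GRCm38. Single values of 1 of the 38 genes are not reported here; it stays in the counts and medians.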

Additional observations from a re-analysis of the deposited data

Results flagged for a closer look

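Bckdk, the mutated gene, differed between the tissues in its genotype difference: the interaction was -8.14 on the log2 scale (limma adjusted p = 1.26e-10), since it was lower in all 3 mutant muscle libraries and higher in all 3 testis libraries labelled mutant.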

How the results depend on the processing

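Counts of called synthetase genes stayed within 1.5 times of those reported under every alternative run, other than the interaction without muscle D (2 instead of 0). Leaving out each library gave 29 to 32 called genes for wild-type muscle against testis, 25 to 29 for mutant muscle against testis labelled mutant, 0 in either genotype comparison and 0 to 2 for the interaction. The same gave medians of 0.93 to 0.98 (cytosolic) and 0.38 to 0.63 (mitochondrial) between wild-type tissues, 0.49 to 0.76 and 0.49 to 0.68 between mutant muscle and testis labelled mutant, -0.29 to -0.13 and -0.20 to -0.07 in muscle, 0.018 to 0.063 and -0.046 to 0.048 in testis, and 0.42 to 0.65 for the pair ratios. The cytosolic median between wild-type tissues was 1.05 with DESeq2 and with median-of-ratios scaling, 1.16 with TMM and with edgeR, 0.72 with the rlog values and 0.48 with total-read scaling, and the mitochondrial one 0.61, 0.60, 0.71, 0.72, 0.38 and 0.028 (DESeq2, median of ratios, TMM, edgeR, rlog, total reads), and 0.61 without the high-islet libraries. Between mutant muscle and testis labelled mutant the cytosolic median was 0.77 with TMM, 0.79 with edgeR, 0.45 with rlog, 0.28 with total-read scaling and 0.86 without the high-islet libraries, and the mitochondrial one 0.79, 0.82, 0.48 and 0.31, and 0.49 with a mean of at least 50. With the mouse as a replicate block these medians were 0.76 and 0.50, and between wild-type tissues 31 genes were called. Beyond the calls of Ears2, Aars, Tars2 and Lars2 given above, the block changed no other call. In muscle the cytosolic median was -0.048 and the mitochondrial one 0.019 without the high-islet libraries, and the latter -0.026 with total-read scaling. In testis the cytosolic median was 0.0097 with DESeq2, 0.0052 with TMM, 0.0073 with edgeR, 0.0076 with median of ratios, -0.012 with total-read scaling and 0.017 without the high-islet libraries. Fits without the high-islet libraries left mouse D alone in mutant muscle and mouse C alone in wild-type testis. Their medians therefore rest on a single library in that group. Total-read scaling reversed Dars (-0.39), Farsa (-0.42), Farsb (-0.12), Rars2 (-0.47) and Tars2 (-0.22) between wild-type tissues. No paired analysis was possible for the genotype comparisons because no mouse has both genotypes and the columns carry no replicate number shared between them. The cause of these changes was not tested, other than that a scaling moves all genes of a library together. With 3 libraries a group, a gene that was not called may still differ by any value inside its interval.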
